A study of Capsicum annuum with 5 samples.

Results

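Mature leaves and developing stems of pepper (Capsicum annuum) were set against each other through the microRNAs (miRNAs) listed for them. Both tissues came from plants of the inbred line Zunla 1, with no treatment named, kept in greenhouse soil at 22 °C with 16 h of light a day and in full bloom at harvest. They are 2 of the 5 tissues of a small RNA study, each with 1 library, and organ and stage (a mature leaf, a developing stem) cannot be told apart here. The members are all mature sequences of the deposited miRNA annotation, 314 entries (155 from 5′ arms and 159 from 3′ arms) on 165 hairpins of 64 families, or 245 distinct sequences. Each distinct sequence was taken once per family. The tags, that is, sequenced small RNAs assigned to these sequences, then added up to 542531 in leaf and 318815 in stem. These sums cover the listed miRNAs only and do not measure library depth. The question is which families, and which sequences and arms within a family, differ between leaf and stem.

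A plant miRNA is cut by DICER-LIKE enzymes from a hairpin transcript as a short duplex, with 1 strand from the 5′ arm and 1 from the 3′ arm. The strand loaded into an ARGONAUTE protein guides the silencing of messenger RNAs and is called the guide. The other strand, here the opposite arm, is as a rule degraded. Members of a family share most of their guide sequence, above all the seed near its 5′ end, and usually share targets. Conserved plant families mostly target transcription factors that shape meristems, leaves and vascular tissue, while others target copper proteins, phosphate transport, the silencing machinery itself or NLR disease resistance genes. Guides of 22 nt are known for starting the production of secondary small RNAs from their targets.

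The sequences below carry the main differences and are written 5′ to 3′ as DNA letters, from the deposited annotation, with the seed (bases 2 to 8) in capitals. The first set holds the leading sequences of families with more tags in leaf, and miR397a-3p, which was listed in leaf and at 0 in stem. Guide arms here are known from textbooks only for miR167 (5′), miR393 (5′), miR408 (3′) and miR397 (5′), so that miR167a-5p is a guide, miR393a-3p, miR408-5p and miR397a-3p are opposite strands, and miR5301-5p is not assigned.
miR393a-3p: aTCATGCGatctcttcggaat
miR167a-5p: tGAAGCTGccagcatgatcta
miR408-5p: aCAGGGACgaggcagcgcatg
miR5301-5p: tGTGGGTGgggtggaaagatt
miR397a-3p: tCTACGCTgcactcaatcatg

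The next set holds leading sequences of families with more tags in stem. The second guide of miR164 is added because it is a single base away from the first, and miR4414b-5p because it was listed at 0 in leaf.
miR403-3p: tTAGATTCacgcacaaactcg
miR164a-5p: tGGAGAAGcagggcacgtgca
miR164b-5p: tGGAGAAGcagggcgcgtgca
miR4414b-5p: aTCTGCCGactcattcattca
miR4414b-3p: tGTGAATGatgcgggagataa
miR5300-5p: tTCCCAGTccaggcattccaac

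In miR156, miR390 and miR166 the 2 tissues split the guide tags differently among near-identical sequences, which are shown here so that the small base changes can be seen.
miR156a-5p: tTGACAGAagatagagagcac
miR156h-5p: tTGACAGAagagagtgagcat
miR156d-5p: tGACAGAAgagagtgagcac
miR390b-5p: aAGCTCAGgagggatagcacc
miR390a-5p: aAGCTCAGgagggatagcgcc
miR166a-3p: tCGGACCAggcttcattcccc
miR166h-3p: tCGGACCAggcttcattcctc

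The last set pairs guides with sequences from the opposite arms of their hairpins (miR166a, miR482a and miR482b), because leaf and stem differed in the balance of arms.
miR166a-5p: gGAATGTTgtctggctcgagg
miR482a-3p: tTTCCAATtccacccattccta
miR482a-5p: gGAATTGGtgggttggaaagc
miR482b-3p: tCTTGCCTacaccgcccatgcc
miR482b-5p: cGTGAGTGgtgtggtaagata

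A fold below is the leaf share of the listed tags divided by the stem share, so that values above 1 mean more in leaf. It comes with a 95% counting interval, from the exact binomial split of the leaf and stem tags. With 1 library per tissue, library and tissue cannot be told apart, no difference can be checked between replicates, p-values are not given, and intervals cover counting error only. Because the totals can be set in several ways, the range over 4 scalings is given where it matters. Relative to the fold given here, totals summed over hairpins multiply each sequence's fold by 1.39, median-of-ratios scaling by 1.16 and totals without miR166 by 0.816. Over the 36 families with at least 10 tags in each tissue, the median log2 fold is -0.22 here. With this factor alone changed it is 0.25, -0.00 and -0.51 under these scalings. Family folds given with sums over hairpins use the summed counts of the family as well. A family or sequence without tags is called listed at 0, and no fold is given against it, since small hairpin totals were nearly missing. Of 330 leaf and stem hairpin totals, 130 were 0, only 1 lay between 1 and 4, and 188 were at least 10. For single sequences such small counts were listed, for instance 1 tag of miR167a-3p in stem. Fewer cells of a type and less miRNA per cell cannot be told apart in whole organs, and the tissue labels could not be checked against marker genes, as miRNAs alone were listed.

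Tags were listed in either tissue for 52 families. Of these, 39 had tags in both and at least 10 in all. Among the 39, 9 families (23.1%) were at least 2-fold higher in leaf, 10 (25.6%) were at least 2-fold lower, and 20 lay between. The median fold was 0.927. Of the remaining 13 families, 6 were listed at 0 in stem, 6 at 0 in leaf and 1 had under 10 tags. The call was the same under all 4 scalings for 29 families, and the direction for 31. Just inside the limits stood miR397 (2.21) and miR159 (0.424), and just outside them miR398 (1.74) and the candidate miRC27 (0.542).

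**Figure D1:**
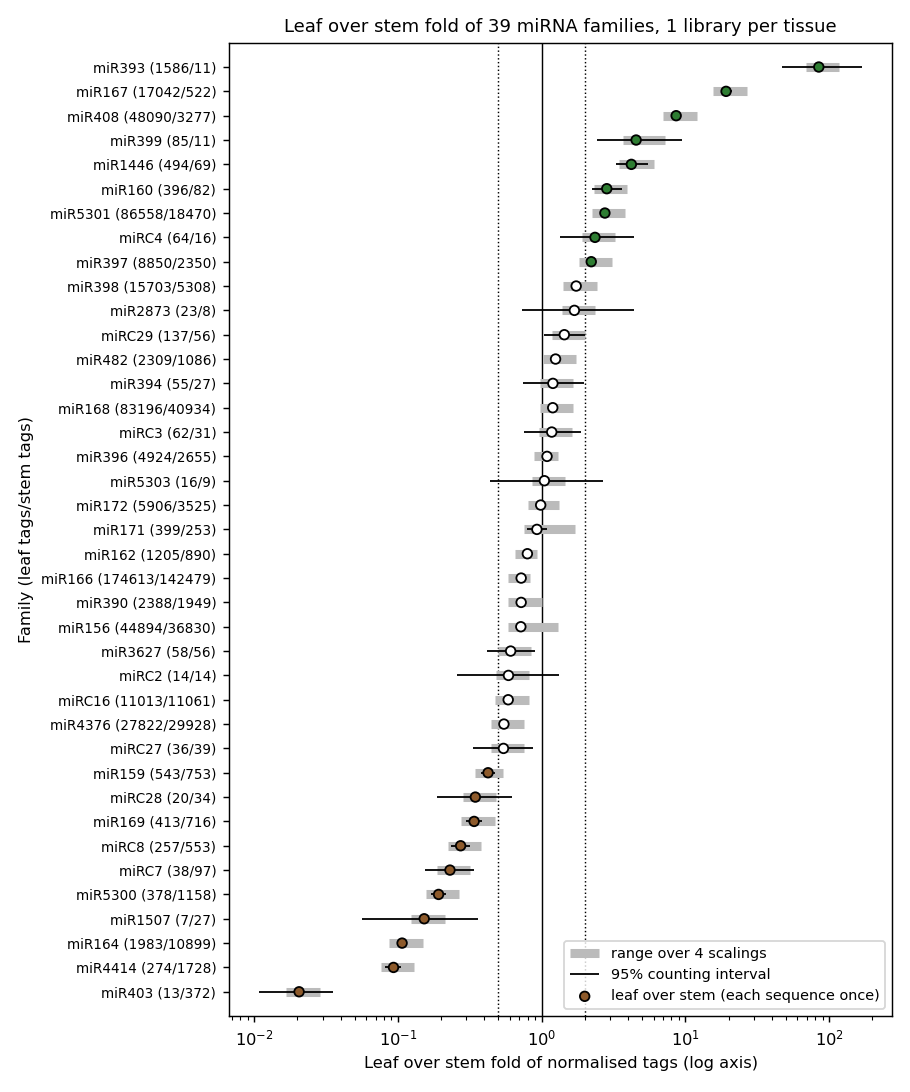
Leaf over stem fold (log axis) of the 39 families with tags in both tissues and at least 10 tags, ordered by fold, with leaf and stem tags beside each name. Points are the folds (green at least 2, brown at most 0.5, white between), thin lines the 95% counting intervals and grey bars the range over 4 scalings. The folds run between 0.0205 for miR403 and 84.7 for miR393, and the dotted lines mark 0.5 and 2.

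Taken by distinct sequence, 93 of the 165 tagged sequences could be compared, and 27 (29.0%) were at least 2-fold higher in leaf while 31 (33.3%) were at least 2-fold lower. A further 19 sequences of at least 10 tags were listed at 0 in stem and 14 at 0 in leaf. In several families, described further on, the sequences lay on opposite sides of 1.

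Of the 14 listed families with developmental targets (transcription factor and F-box genes and TAS3), 13 could be compared. Of these, 3 were at least 2-fold higher in leaf and 3 at least 2-fold lower, beside the 23.1% and 25.6% over all families, and 7 lay between. The list's median fold was 0.927, the same as over all families. Its tags made up 47.0% of the leaf total and 63.0% of the stem total.

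Of the families with auxin response factor or auxin receptor targets of their own, miR167, miR160 and miR393 were at least 2-fold higher in leaf, by different arms. miR167, which targets the auxin response factor genes ARF6 and ARF8 in Arabidopsis, counted 17042 tags in leaf against 522 in stem, or 19.2-fold (17.6 to 20.97, with 15.6 to 26.6 over the scalings). Almost all of it was the guide miR167a-5p, with 16885 tags in leaf and 518 in stem. Its opposite strand, miR167a-3p, had 155 tags in leaf and 1 in stem (91.1-fold, with an interval of 16.1 to 3621). For miR160, which targets another group of auxin response factor genes, the values were 396 and 82 tags (2.84-fold, 2.23 to 3.65). Here 392 of the leaf tags and 79 of the stem tags were miR160a-3p, from the arm opposite to the guide, and the guide arm had 4 and 3. miR393, which in its guide form targets the auxin receptor gene TIR1 and related F-box genes, counted 1586 tags in leaf against 11 in stem (84.7-fold, 47.2 to 170.1). All of these tags were miR393a-3p, the opposite strand of a hairpin on chromosome 3 (56612952 to 56613029, minus strand, build not given in the sources used here). Of these 3 only miR167 thus showed the difference in a guide strand. The 3 were grouped with their values in view, and miR390, which acts on auxin response factor genes through TAS3, was lower in leaf (0.720).

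Among the families at least 2-fold lower in leaf, miR164 had the most tags in stem. It targets NAC transcription factor genes that set organ boundaries. miR164 counted 1983 tags in leaf against 10899 in stem, a fold of 0.107 (0.102 to 0.112, and 0.0872 to 0.148 over the scalings). miR159, known to target GAMYB-like genes, had 543 and 753 tags (0.424, 0.379 to 0.474). It was just inside the limit, and with totals summed over hairpins its fold was 0.539. miR169, which targets NF-YA subunits, had 413 and 716 tags (0.339, 0.300 to 0.383). Both arms of its main hairpin took part, miR169l-5p with 205 tags in leaf and 394 in stem and miR169l-3p with 165 and 322. The lower family value came from this hairpin. The guides miR169b-5p, with 29 tags in leaf, and miR169a-5p, with 8, went the other way and stood at 0 in stem. miR319, a regulator of TCP genes in leaf growth, was listed at 0 in leaf but with 22 tags in stem. Of these, 13 were miR319c-5p, from the arm opposite to the guide, which matched miR4414b-5p at 18 of 21 bases. The guide miR319a had only 8 tags in stem.

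The most abundant developmental families differed less. miR166, which targets the class III HD-ZIP genes of organ polarity and vascular patterning, had 174613 tags in leaf and 142479 in stem, or 32.2% and 44.7% of the totals (0.720, 0.715 to 0.725). Under the scalings its fold ran between 0.587 and 0.836. miR156, which targets the SPL genes of phase change, had 44894 and 36830 tags (0.716), but its direction turned with sums over hairpins (1.29). miR390, which guides cutting of the TAS3 transcript, had 2388 and 1949 tags (0.720, and 0.587 to 0.999 over the scalings). For miR172, a regulator of AP2-like genes, the 5906 and 3525 tags gave 0.985 (0.803 to 1.31 over the scalings). The 4924 and 2655 tags of miR396, which targets GRF genes, gave 1.09, the 399 and 253 tags of miR171, which targets GRAS genes, gave 0.927, and the 55 and 27 tags of miR394, which targets an F-box gene, gave 1.20. All 3 of these folds fell on both sides of 1 over the scalings.

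The copper and nutrient families stood higher in leaf. Of the 5 listed, 4 could be compared, and 3 were at least 2-fold higher in leaf (23.1% of all families were) with a list median of 3.38. The fourth was miR398, and miR395 had no tags in either tissue. miR408, whose guide targets genes of copper proteins such as plantacyanin, had 48090 tags in leaf and 3277 in stem (8.62-fold, 8.32 to 8.94). All but 2 tags in leaf and 2 in stem came from miR408-5p, opposite to the guide. miR397, which targets laccase genes, had 8850 and 2350 tags (2.21-fold, 2.11 to 2.32, but 1.80 with totals without miR166). Its guide miR397a-5p had 6607 and 2339 tags, a fold of 1.66 (1.58 to 1.74), while miR397a-3p reached 2238 tags in leaf but stood at 0 in stem. miR398, which targets copper/zinc superoxide dismutase genes, had 15703 and 5308 tags (1.74, between 1.42 and 2.41 over the scalings and past 2 under both median-of-ratios scaling and sums over hairpins). In miR398 the arms went apart: miR398c-5p, the opposite strand, had 15338 and 4891 tags (1.84), and the guide miR398c-3p had 354 and 402 (0.517, 0.447 to 0.598). miR399, a regulator of phosphate uptake, had 85 and 11 tags (4.54, 2.41 to 9.44, but 7.19 with sums over hairpins), of which 62 and 11 were miR399e-5p from the opposite arm.

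The families that act on the silencing machinery did not move together. miR168, which targets AGO1, counted 83196 tags in leaf against 40934 in stem (1.19), on both sides of 1 over the scalings (0.974 to 1.66). miR162, which targets DCL1, had 1205 and 890 tags (0.796, and 0.649 to 0.924). miR403, which targets AGO2, gave the lowest fold of all 39 families, with 13 and 372 tags (0.0205, 0.0108 to 0.0356). Its hairpin, on chromosome 1 (177684490 to 177684590, minus strand), changed arms completely in the listing. The guide miR403-3p stood at 0 in leaf and at 372 tags in stem, while miR403-5p stood at 13 tags in leaf and at 0 in stem. Of this list of 3, 1 was thus at least 2-fold lower in leaf, against 25.6% of all families.

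Of the families known for targeting NLR disease resistance genes, 2 of the 3 compared were at least 2-fold lower in leaf (25.6% of all families were). They were miR5300, with 378 tags in leaf and 1158 in stem (0.192, 0.170 to 0.216), and miR1507, with 7 and 27 (0.152, 0.0560 to 0.359), of which 7 and 18 were the 21 nt miR1507-5p. The miR482 family as a whole stood at 2309 and 1086 tags (1.25, and 1.02 to 1.73), yet its guide arm alone had 264 in leaf and 878 in stem (0.177, 0.153 to 0.203). Both main guides showed it. miR482a-3p had 115 and 453 tags, miR482b-3p had 145 and 386, and miR482d-3p was listed at 0 in leaf with 39 in stem. The 22 nt miR482c-3p went the other way, with 31 tags in leaf and 0 in stem, and is counted with the opposite arm because it is typed as a 5′ arm, against its name and place. The opposite arm had 2045 tags in leaf and 208 in stem (5.78, 5.01 to 6.70). In it, miR482b-5p had 1798 and 208, and miR482a-5p stood at 216 in leaf and at 0 in stem.

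In miR5301, a Solanaceae family, the arms also went apart, and its 5′ arm was far more abundant. miR5301-5p had 86337 tags in leaf and 18054 in stem (2.81, 2.77 to 2.86), and the 22 nt miR5301-3p had 221 and 416 (0.312, 0.264 to 0.368). The hairpin lies on chromosome 4 (54567237 to 54567345, plus strand). miR5301-3p and miR482b-3p matched at 18 of 22 bases (G5T, A11T, G14T and G20A from miR482b-3p to miR5301-3p, counted from 1 at the 5′ end), and miR5301-5p and miR482b-5p at 16 of 21. The other Solanaceae families were miR4376, known in tomato to target a calcium pump gene, with 27822 and 29928 tags (0.546, and between 0.446 and 0.758 over the scalings), and miR5303, with 16 and 9 tags (1.04, and on both sides of 1 over the scalings). With miR5300, this list had 1 family at least 2-fold higher in leaf and 1 at least 2-fold lower among 4, beside 23.1% and 25.6% of all families.

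A split by length put these strands side by side. Sequences of 22 nt held 28888 tags in leaf and 32597 in stem, 5.32% and 10.2% of the totals, and most of them were miR4376-5p with 27784 and 29928. Without miR4376-5p they held 1104 and 2669 tags (0.243, 0.226 to 0.261, and 0.198 to 0.337 over the scalings). The 5 sequences miR482a-3p, miR482b-3p, miR482d-3p, miR5300-5p and miR5301-3p, picked after their values were seen, made up 859 and 2452 of those, a set that leaves out miR482c-3p with 31 and 0. Of 12 sequences of 22 nt compared, 7 were at least 2-fold lower in leaf and 1 at least 2-fold higher, with a median fold of 0.329, while over all 93 sequences 33.3% were lower and 29.0% higher. A further 3 sequences of 22 nt were listed at 0 in stem (miR482c-3p, miRC23-5p and miR5303c-3p) and 2 at 0 in leaf. Of 73 sequences of 21 nt, 22 were lower and 24 higher, with a median of 1.23. The 21 nt class held 94.2% of the leaf tags and 87.8% of the stem tags. By first base, U (T in the listing) led 74.6% of the leaf tags and 81.2% of the stem tags and G 6.84% and 2.65%, while without miR166 the shares for U were 67.5% and 67.5%.

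The shift from guide to opposite arm in leaf ran through most families. A share within a family does not depend on how the libraries are scaled. In 19 families with a known guide arm, tags on both arms and at least 10 tags in each tissue, the opposite arm's share was higher in leaf in 17, and in 12 of these the 2 intervals did not overlap. It was lower in leaf in 2, miR169 (41.4% and 45.0%) and miR399 (83.5% and 100%), and in neither were the intervals apart. With tags summed over hairpins the count of 17 became 16, as miR171 turned. Intervals apart were not particular to these families. Among families with no assigned guide, those of the arm shares were apart in miR1446, miR4376, miR4414, miR5301 and miRC7. They overlapped in miRC16, miRC27, miRC29, miRC3 and miRC4. Over all 23 families with a known guide, opposite arms held 94598 tags in leaf, 22.8% (22.7 to 22.9), and 13510 in stem, 5.30% (5.21 to 5.39). Leaving out only miR398 and miR408, whose opposite arms lead in both tissues, the shares were 8.89% and 2.16%. The opposite arm also led in both tissues in miR160, miR171, miR393 and miR399, which were kept. The direction was noticed in these data before it was counted, so the count is a description.

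**Figure D2:**
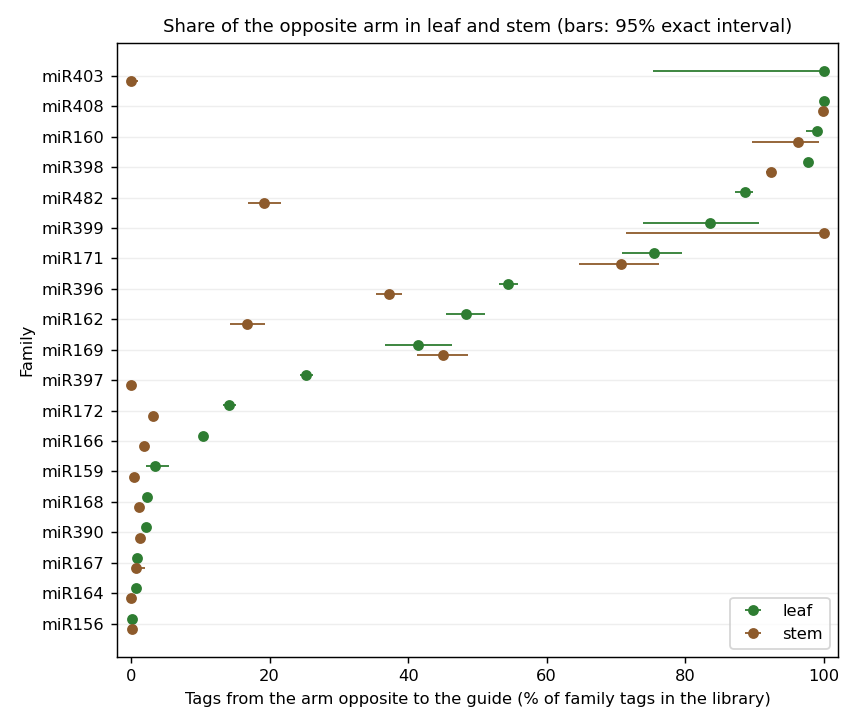
Share of a family's tags from the arm opposite to its guide (%, x axis), in leaf (green) and stem (brown), for 19 families; bars are exact 95% intervals. The leaf point lies to the right of the stem point in 17 families, farthest in miR403 and miR482.

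The widest gaps were in the families just described, miR403 (100% of 13 leaf tags and 0% of 372 stem tags) and miR482 (88.6% and 19.2%). In miR162 the opposite arm had 48.3% of the leaf tags and 16.7% of the stem tags. There the guide arm had 623 tags in leaf and 741 in stem (0.494, 0.443 to 0.550), while the opposite arm had 582 and 149 (2.30, 1.91 to 2.77). The family value of 0.796 was thus made of arms that went opposite ways. miR397 followed with 25.3% and 0%, miR396 with 54.5% and 37.3%, and miR172 with 14.2% and 3.21%.

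In miR166 the gap was smaller but rested on more tags, with 10.3% (10.2 to 10.5) in leaf and 1.91% (1.84 to 1.98) in stem. Summed over hairpins, the difference narrowed to 3.53 points from 8.41 in miR166, and to 3.22 points from 10.98 in miR172. Its guide arm had 156595 tags in leaf and 139763 in stem (0.658), and its opposite arm 18018 and 2716 (3.90, 3.74 to 4.06). miR166a-5p had 13964 of those leaf tags and 1776 of those stem tags. Shares were also small but apart in miR168 (2.31% and 1.17%), miR159 (3.50% and 0.398%), miR164 (0.756% and 0.0184%) and miR156 (0.160% and 0.0815%). The leaf and stem intervals overlapped in miR167, miR390, miR171, miR160 and miR408. Set against its guide, the opposite arm was more frequent in leaf than in stem by a median factor of 3.60 over the 16 families where this ratio could be formed (0.865 to 41.5). These factors carry no interval, and some rest on few tags. The 41.5 is that of miR164, with 15 opposite tags in leaf and 2 in stem. The 14.7 of miR408 rests on 2 guide tags in each tissue.

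The same tags were also split by single hairpin, which is no separate check on the family shares. Some opposite counts were small, such as 10 tags in leaf and 3 in stem for miR156h, and 15 and 2 for miR164b. Of 19 hairpins with a sequence of their own on each arm, in 14 families, the opposite share was higher in leaf in 16 and lower in 3 (miR169l, miR398e and miR399e). For miR172g the opposite strand miR172g-5p had 780 tags in leaf and 20 in stem (22.9, 14.7 to 37.7), and the guide miR172g-3p had 181 and 29 (3.67), so the opposite share was 81.2% in leaf and 40.8% in stem. For miR396c the guide had 632 and 384 tags and the opposite strand 450 and 42, which gave 41.6% and 9.86%. miR168b gave 19.3% and 11.9%. In miR390a and miR390b both shares were below 3%.

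By distinct sequence, 33 guides and 37 opposite strands could be compared. Of the guides, 2 were at least 2-fold higher in leaf and 14 at least 2-fold lower, with a median fold of 0.675 (0.551 to 0.937 over the scalings). Of the opposite strands, 21 were at least 2-fold higher and 8 at least 2-fold lower, with a median of 2.54 (2.07 to 3.52). The background over all 93 sequences was 29.0% and 33.3%. Sequences below 10 tags are not in these counts, and a weak strand could enter only through the tissue where it was more frequent. The 2 guides higher in leaf were miR167a-5p and miR172g-3p. Opposite strands lower in leaf included miR169l-3p (165 and 322), miR171c-5p (42 and 151, a fold of 0.163) and miR172f-5p (13 and 60, a fold of 0.127).

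Weak opposite strands stood at both ends of the order. miR171f-5p counted 93 tags in leaf against 4 in stem (13.7, 5.16 to 51.2), miR156a-3p 44 against 1 (25.9, 4.40 to 1044) and miR159c-5p.1 18 against 1 (10.6, 1.67 to 441). At the other end, miR172e-5p counted 1 against 13 (0.0452, 0.00106 to 0.301) and miR156f-3p 3 against 21 (0.0839, 0.0160 to 0.281). The intervals are wide at such counts. Each of the 5 lay wholly on 1 side of 1, but they were picked for their large folds, so this is no check on them. Of the 19 sequences listed at 0 in stem, 7 were opposite strands of known guides and 1 was a guide, miR169b-5p with 29 tags in leaf. The 7 were miR397a-3p, miR482a-5p and miR403-5p, already given, and miR171j-5p with 109, miR482c-3p with 31 (opposite as typed, but a guide by its name and place), miR172d-5p with 23 and miR166b-5p with 13. Of the 14 listed at 0 in leaf, 4 were guides and 2 opposite strands, miR319c-5p and miR398e-5p, the second with 11 tags in stem. Among all 165 tagged sequences, 58 were opposite strands and 49 were guides. The listed total was larger in leaf, with 542531 tags against 318815 in stem.

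**Figure D3:**
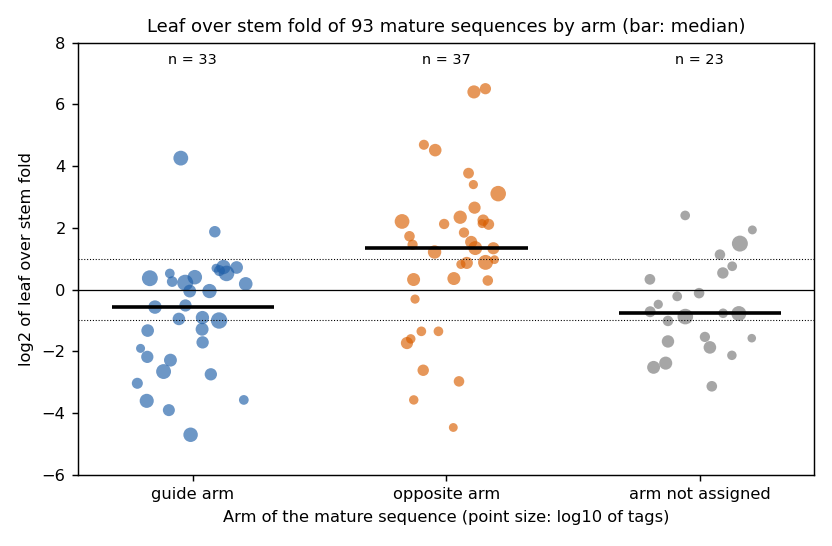
Log2 of the leaf over stem fold (y axis) of the 93 compared sequences, for 33 guides, 37 opposite strands and 23 sequences of families with no known guide arm; point size grows with the log10 of the tags and black bars are medians. The median fold is 0.675 for guides and 2.54 for opposite strands, and points in each class lie on both sides of 0.

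Within the guide arm, leaf and stem also drew on different near-identical sequences. In 13 families with 2 or more guide sequences of at least 10 tags, the leading guide was the same in both tissues in 11 and another in 2, and in 12 the share of at least 1 sequence had intervals that did not overlap. miR164 differed most. miR164a-5p had 634 tags in leaf and 9705 in stem, 32.2% and 89.1% of the guides, a fold of 0.0384 (0.0354 to 0.0416). miR164b-5p, which differs by the single change A15G, had 1334 and 1161 tags, 67.8% and 10.7%, a fold of 0.675 (0.624 to 0.731). The stem lead of the family thus lay almost wholly in miR164a, whose hairpin is on chromosome 8 (132373612 to 132373701, plus strand). It was far smaller in miR164b, on chromosome 10 (167342432 to 167342571, plus strand). miR164c, the third guide, was listed at 0 in leaf and had 31 tags in stem.

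**Figure D4:**
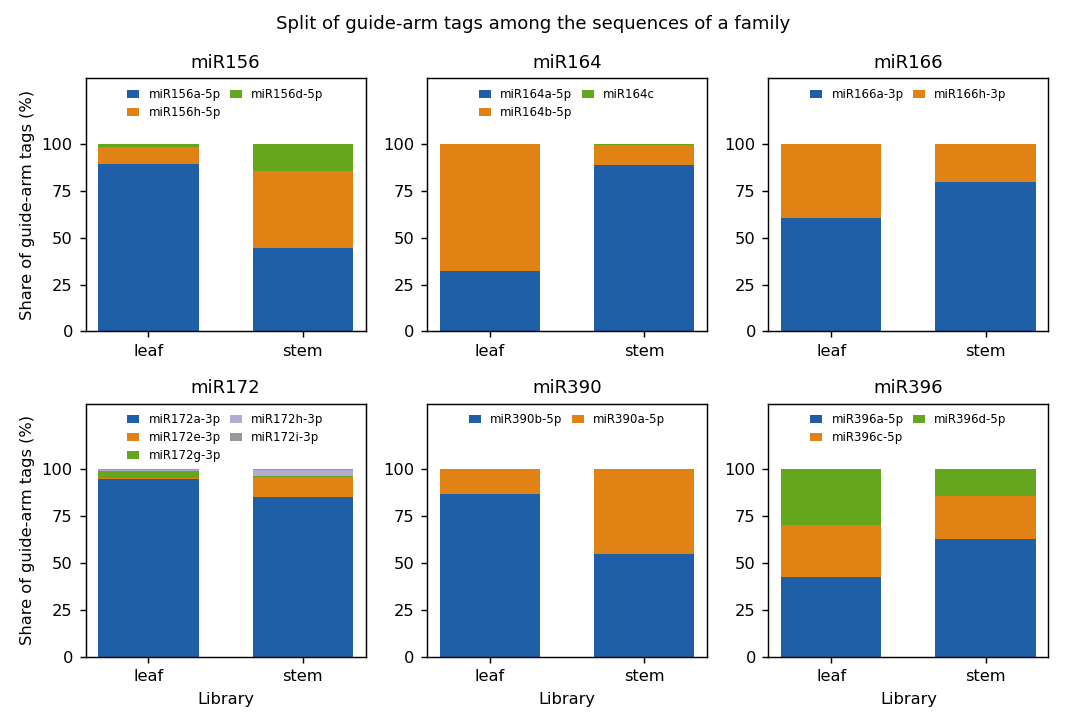
Split of the guide-arm tags (%, y axis) among the distinct sequences of 6 families, leaf left and stem right; each bar adds up to 100%. miR164b-5p holds 67.8% of the miR164 guides in leaf and 10.7% in stem, and miR156a-5p 89.2% of the miR156 guides in leaf and 44.4% in stem.

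miR156 drew on 3 guides in different measure. miR156a-5p had 39988 tags in leaf and 16334 in stem, 89.2% and 44.4% of the guides (1.44-fold). The other 2 were lower in leaf, with 4087 and 15126 tags for miR156h-5p (0.159, 0.153 to 0.164) and 747 and 5340 for miR156d-5p (0.0822, 0.0760 to 0.0888). miR156h-5p differs from miR156a-5p by T12G, A15T and C21T and keeps its seed, and miR156d-5p is 20 nt long. The family fold of 0.716 is thus made of guides on both sides of 1. In miR390, miR390b-5p had 2032 and 1050 tags, 86.9% and 54.6% of the guides (1.14), and miR390a-5p, with the change A19G, had 305 and 874 (0.205, 0.179 to 0.234). In miR166, miR166a-3p fell to 60.6% of the guides in leaf, against 79.9% in stem, with 94959 and 111709 tags. miR166h-3p, a single base away (T20C from miR166h-3p to miR166a-3p), had 61636 and 28054 (1.29). Since 7 hairpins carry the sequence of miR166a-3p and 2 that of miR166h-3p, tags cannot be traced to single loci there.

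Smaller guides moved as well. miR172e-3p, a single base (T21G) from the main guide miR172a-3p, had 40 tags in leaf and 352 in stem (0.0668, 0.0469 to 0.0928), next to 4803 and 2916 for miR172a-3p (0.968). miR172h-3p had 22 and 106. In miR396 the share of miR396a-5p was 42.4% in leaf and 62.8% in stem, and that of miR396d-5p, which differs by A21G, was 29.4% and 14.2%. For miR171 the guide miR171c-3p had 86 and 33 tags, while miR171h-3p had 4 and 28 and miR171i-3p was listed at 0 in leaf with 13 in stem. In miR482 the lead passed between near equals, with 55.8% and 44.0% for miR482b-3p and 44.2% and 51.6% for miR482a-3p. The split of miR168 differed little, with miR168a-5p at 90.4% in leaf and 91.4% in stem, though the intervals did not overlap.

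The miR397 locus on chromosome 7 (217000382 to 217000475) is listed on both strands, as miR397a on the minus strand and miR397b on the plus strand. The reverse complement of miR397a-3p, the strand with 2238 tags in leaf, matches miR397b at 19 of 19 overlapping bases. miR397b itself had 5 tags in leaf and 11 in stem. The listing assigns these tags by strand, and the sources used here do not say whether the counting was strand-specific.

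Among less conserved families, miR4414 had 274 tags in leaf and 1728 in stem (0.0932, 0.0817 to 0.106). miR4414b-3p had 274 and 923, and miR4414b-5p stood at 0 in leaf and at 788 in stem, so that the 3′ arm alone was listed in leaf. miR1446 was higher in leaf, with 494 and 69 tags (4.21, 3.27 to 5.49), and its arms were listed unevenly. Its log2 fold of 2.07 became 3.06 with the mean count of sequences repeated on its hairpins. miR1446b-3p stood at 468 tags in leaf and at 0 in stem, while miR1446a-5p.1 had 13 and 67 (0.114). miR1446a-5p.2 went the other way, with 13 and 2 (3.82, 0.865 to 34.9). Both 5′ sequences are listed on the hairpins miR1446a and miR1446b, so their tags cannot be traced to the hairpin of miR1446b-3p. miR3627, with 58 and 56 tags, gave 0.609, and miR2873, with 23 and 8, gave 1.69 with an interval on both sides of 1. miR6149 stood at 36 tags in leaf and at 0 in stem. Smaller strands at 0 in stem were miR4376-3p with 38 tags in leaf and miR5303c-3p with 15, and miR4414a-3p stood at 0 in leaf and 15 in stem. miR477, with 5 tags in leaf and 0 in stem, was too sparse to compare.

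Candidates are the 29 families named miRC, without an established number. Of the 9 compared, 1 was at least 2-fold higher in leaf and 3 at least 2-fold lower (23.1% and 25.6% of all families), with a median fold of 0.585 against 1.01 for the 30 numbered families. The most abundant was miRC16 on chromosome 3, with 11013 tags in leaf and 11061 in stem (0.585, and 0.477 to 0.812). miRC8 had 257 and 553 (0.273), miRC7 38 and 97 (0.230), miRC28 20 and 34 (0.346) and miRC4 64 and 16 (2.35, and 1.92 with totals without miR166). Besides miRC16, 4 more lay between the limits, miRC29 with 137 and 56 tags (1.44), miRC3 with 62 and 31 (1.18), miRC27 with 36 and 39 (0.542) and miRC2 with 14 and 14 (0.588). In miRC7 the arms changed as well, with miRC7-3p.1 listed at 0 in leaf and at 94 in stem and miRC7-5p.2 at 27 and 3. miRC13 had 560 tags in leaf, with miRC19, miRC22, miRC23 and miRC25 at 10 to 23, and all 5 were listed at 0 in stem. miRC11 had 427 tags in stem, with miRC10, miRC12, miRC21 and miRC24 at 10 to 42, and all 5 were listed at 0 in leaf.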

How the data were processed

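The deposited file is an annotation written by the miRNA finder MIREAP, per the file headers, in which every mature sequence carries a whole-number tag count for each library. Not given in the sources used here are the aligner, the genome build, the library totals and the treatment of tags with several matches. Per the labels' protocols, total RNA was extracted with Trizol (the text names root samples for all tissues) and an Illumina small RNA kit was used. From these deposited counts, leaf and stem were read for all 314 mature entries. A sequence on several hairpins (36 sequences, 15 with unequal counts) was taken once per family at its highest count. Arms follow the typed arm, which went against the place in the hairpin for 6 entries. Families and sequences with at least 10 tags over leaf and stem and tags in both were compared, and a fold of at least 2 or at most 0.5 was called. Guide arms of 23 families came from a textbook table. The members, the lists (development, copper and nutrients, silencing pathway, NLR, Solanaceae) and this table were chosen with earlier results of these data known. Named were the listed families of these lists, the 10 largest folds each way, features at 0 in 1 tissue, the most abundant families and the largest arm differences. Sequences named for their split or likeness were picked with values in view. Alternatives covered 3 scalings, the lowest or mean count of a repeated sequence, count minimums, a fold of 4 and arms by name. Fold intervals were run on simulated Poisson counts with fixed totals. Such counts hold counting error only, so the run cannot check the intervals against variation between libraries or the choice of scaling. Python 3.11.15, pandas 2.3.3, NumPy 2.4.6 and SciPy 1.17.1 were used.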

Additional observations from a re-analysis of the deposited data

How the results depend on the processing

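With a fold of 4 in place of 2, 5 families were higher in leaf and 6 lower, in place of 9 and 10, and 16 sequences were higher and 17 lower, in place of 27 and 31. Over the other alternatives the families higher in leaf numbered 7 to 11 and those lower 9 to 15 (15 with totals without miR166), and the sequences 18 to 37 and 22 to 37. Without miR166 the leaf minus stem difference was -10.63 points for 22 nt tags, in place of -4.90, and -0.0678 points for tags beginning with U, in place of -6.57. No miR166 sequence is 22 nt long, and the 22 nt tags stayed at 28888 in leaf and 32597 in stem while the totals shrank. The miR166 guides, with 156595 tags in leaf and 139763 in stem, all begin with U. What lies behind the tissue differences was not tested. The families with a higher opposite-arm share in leaf numbered 17 with arms taken from the names. For miR1446 the lowest count of a repeated sequence gave no value on the log2 scale, as no stem tags were left. No paired analysis was possible because each tissue has 1 library. Counts of a few tags, as for the guides of miR160 and miR408, limit what can be said of a strand, and the unknown library totals leave every fold relative to the listed miRNAs.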

Other observations

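Comparing all distinct sequences across families without gaps, at shifts of up to 4 bases, 12 pairs from different families matched at 16 or more bases or over an unbroken run of at least 12. In that search, made after the values were seen, miR4414b-5p matched miR319c-5p at 18 of 21 bases (T1A, G2T and C19T from miR319c-5p to miR4414b-5p, counted from 1 at the 5′ end). Both were listed at 0 in leaf, with 788 tags of miR4414b-5p and 13 of miR319c-5p in stem. On the other arm, miR4414b-3p matched miR319c-3p at 16 of 21 bases, with 274 and 0 tags in leaf and 923 and 1 in stem. A further 6 pairs linked 22 nt strands of miR482, miR5300, miR5301 and miR1507. Among them miR1507-3p matched both miR482b-3p and miR5301-3p at 17 of 22 bases, and it stood at 0 tags in leaf and 9 in stem. miR3627 and miR4376-5p shared a run of 13 bases and had folds of 0.609 and 0.546. miR6149-5p and miRC2a-5p matched at 16 of 20 bases, with 36 tags of miR6149-5p in leaf and 0 in stem, and 14 of miRC2a-5p in each.

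Beside miR397, 1 more pair of hairpins was listed at a single place on both strands, miR156h and miR156i on chromosome 9 (1598999 to 1599089).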
